A study of Mus musculus with 9 samples.

Results

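The respiratory chain genes of the mouse were followed here in the newborn dorsal telencephalon, the tissue that forms the cerebral cortex and hippocampus. They were all genes whose symbol starts with mt- and the protein-coding genes whose symbol starts with Nduf, Uqcr, Atp5 or Cox4 to Cox8, with Sdha to Sdhd. The annotation held 131 such genes, and 130 of them were among the 41128 genes counted. Of these, 37 are encoded by mitochondrial DNA, as 13 mRNA, 2 rRNA and 22 tRNA genes, and 93 by nuclear chromosomes. RNA-seq reads per gene were compared in 3 libraries each from P0 pups labelled as Tcf4 knockouts (KO), heterozygotes (Het) and wild types (WT), all of the mixed strain B6:129SF2/J. Tcf4 encodes a basic helix-loop-helix transcription factor, and the question of the design is which transcripts follow its loss. The labels give neither the deleted part of Tcf4 nor whether each library came from 1 pup, so p-values cover the variation among these libraries alone, which may be technical.

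The respiratory chain moves electrons from NADH and succinate to oxygen through complexes I to IV and stores the energy as a proton gradient that ATP synthase, complex V, uses to make ATP. Complexes I, III, IV and V are mosaics of subunits made from both genomes, whereas complex II is made by nuclear genes alone. Mitochondrial DNA is transcribed inside the organelle as long RNAs of each strand that are cut into single rRNAs, tRNAs and mRNAs, while nuclear subunits are transcribed 1 gene at a time and imported as proteins.

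Libraries held 26355671 to 29445788 counts in KO, 24008445 to 29398411 in Het and 22291940 to 23813314 in WT. Gene-level Tcf4 counts did not check the labels: they were 611 to 638 CPM, reads of a gene scaled to a common library total, in KO, 652 to 822 in Het and 584 to 728 in WT, with a log2 fold change of -0.10 in KO against WT (adjusted p = 0.363, SE 0.09), so the libraries are called by their labels throughout. The WT libraries stood apart from all others on the first principal component, which held 64.1% of the variance. Reads on processed pseudogenes made up 0.0647 to 0.0782% of counts in KO, 0.0745 to 0.0834% in Het and 0.225 to 0.276% in WT. A second split crossed the labels: Het replicate 1, WT replicate 1 and WT replicate 3 had under 1000 summed counts of mt-Rnr1 and mt-Rnr2, the measure the split was drawn on, so these 2 genes differ across it by construction. Among the 37 genes called between those 3 libraries and the other 6 there was no other respiratory chain gene. BC002163, a processed copy of Ndufs5 described below, was among them, lower in the other 6 (log2 fold change -1.27, edgeR adjusted p = 0.0458). Projection neuron markers were present everywhere (8 of 8 tested, summing to 2223 to 2315 CPM in KO, 2145 to 2435 in Het and 1899 to 2146 in WT).

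Several of the genes have near-identical copies, between which reads can be split, and their sequences are given first. A stretch of chromosome 1 carries a copy of mitochondrial DNA, and 7 of the 13 mitochondrial mRNA genes share over 60% of their 31-base words with other transcripts. The first 60 bases of the mt-Nd3 transcript (chrM:9459-9806, plus strand, build mm10) and of its chromosome 1 copy Gm28438 (chr1:24612775-24613119, minus strand) are set side by side, with the differing base in capitals; T3C, counted from the first transcript base and at position 9461 of the mitochondrial genome, is the 1 difference in 345 bases.
mt-Nd3: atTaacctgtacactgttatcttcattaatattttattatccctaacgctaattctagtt
Gm28438: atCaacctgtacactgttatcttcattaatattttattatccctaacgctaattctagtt
The nuclear gene Ndufs5 (chr4:123712710-123718202, minus strand) likewise has a processed copy, BC002163 (chr16:42955631-42955949, plus strand). Bases 61 to 120 from the start codon hold both differences in 319 bases, T81C and A105G, shown in capitals.
Ndufs5: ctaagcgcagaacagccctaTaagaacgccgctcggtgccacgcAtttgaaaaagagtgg
BC002163: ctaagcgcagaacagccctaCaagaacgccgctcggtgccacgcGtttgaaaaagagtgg
The transcript of mt-Co2, a core subunit of complex IV, matches its copy Gm28661 (chr1:24614885-24615565) in all 681 bases compared and stands for the genes with no difference; no capitals are used.
mt-Co2: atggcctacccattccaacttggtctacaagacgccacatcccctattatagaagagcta
Gm28661: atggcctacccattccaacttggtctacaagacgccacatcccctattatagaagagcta
All 6 sequences are from GENCODE M21 transcripts. The handling of reads with more than 1 match was not given in the sources used here.

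Transcripts of the mitochondrial genome were lower in KO and in Het than in WT, while the nuclear share was nearly level. The 13 mitochondrial mRNAs took 0.643, 0.702 and 0.667% of all counts in the KO libraries, 0.825, 0.661 and 0.754% in the Het libraries and 1.13, 0.960 and 1.01% in the WT libraries. Every KO and Het library lay below every WT library, and KO and Het overlapped. Means were 0.671 ± 0.0298% in KO, 0.746 ± 0.0823% in Het and 1.03 ± 0.0903% in WT (SD, n = 3 each). The 93 nuclear genes took 0.984 to 1.05% in KO, 0.957 to 1.04% in Het and 1.004 to 1.11% in WT, with overlapping libraries. Within a library, mitochondrial mRNA counts were 0.659 ± 0.0399 times the nuclear counts in KO, 0.745 ± 0.0972 times in Het and 0.987 ± 0.124 times in WT. The genes mt-Co2, mt-Co3, mt-Atp6 and mt-Nd4l, which match copies in full, had at most 197 counts in any library. The mitochondrial shares and ratios are thus of assigned reads and may understate mitochondrial mRNA.

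The log2 ratio of mitochondrial to nuclear counts differed by -0.58 for KO versus WT and by -0.41 for Het versus WT. Among the 6 libraries rich in mitochondrial rRNA, 1 of them WT, the ratio differed by -0.48 and -0.38. Of the mitochondrial mRNAs only mt-Nd1 shares under 5% of its words, and the log2 ratio of this 1 gene to the nuclear genes under that limit differed by -0.79 and -0.65. No permutation test was run on the rRNA-rich libraries alone. For the ratio over all members and for the mitochondrial share, the exact two-sided permutation test gave p = 0.1 in KO versus WT and in Het versus WT. That is the smallest p that 3 libraries against 3 can give, and it became 0.225 after adjustment over the 9 tests, so none passed. The nuclear share gave exact permutation p = 0.5 for KO versus WT and 0.4 for Het versus WT. For KO versus Het the mitochondrial share differed by -0.0754 percentage points and the log2 ratio by -0.17 (exact permutation p = 0.3 for both), and the nuclear share by 0.0151 percentage points (exact permutation p = 0.6).

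**Figure D1:**
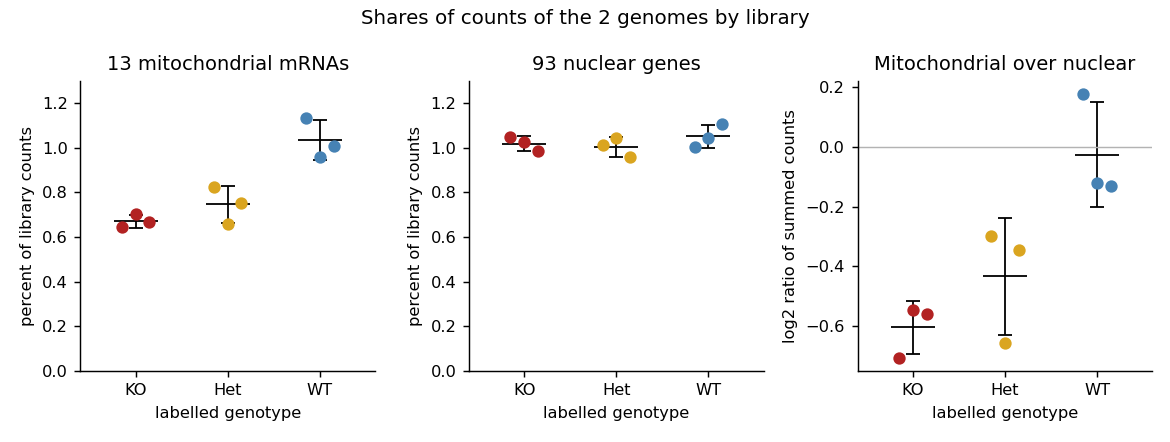
Share of library counts on the 13 mitochondrial mRNAs and on the 93 nuclear genes, in percent, and the log2 ratio of both sums, for KO, Het and WT libraries; points are libraries, bars are mean and SD (n = 3). The mitochondrial share sits between 0.643 and 0.702% in KO, below the 0.960 to 1.13% in WT, while the nuclear shares overlap.

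Across 15271 genes tested with edgeR's quasi-likelihood test, which gave all adjusted p-values printed unless another test is named, 52.8% were called in KO versus WT at adjusted p under 0.05, 26.5% higher and 26.3% lower. Of the 12 mitochondrial mRNAs that passed the filter on low counts, 10 were called lower in KO than in WT and 0 higher, with a median log2 fold change of -0.72 against 0.01 over all genes tested. At an unadjusted p under 0.05 edgeR had 0 of them higher, and DESeq2 and limma called 0 higher. Het versus WT called 45.9% of all genes, 22.5% higher and 23.4% lower, and 9 of the 12 mitochondrial mRNAs were called lower and 0 higher (median -0.55). Both comparisons use the same WT libraries. KO versus Het called 16.7% of all genes, 8.30% higher and 8.44% lower, with 2 of the 12 mitochondrial mRNAs lower. Group means ran in the order KO below Het below WT for 10 of the 12 mitochondrial mRNAs and for 25 of the 90 nuclear genes tested. The share of all genes with this order was not counted, so neither number can be called unusual.

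Core subunits of complex I, which takes electrons from NADH, gave the widest differences among the well-counted mRNAs. mt-Nd2 (chrM:3914-4951, plus strand) was counted at 397, 437 and 440 CPM in KO, 549, 519 and 544 CPM in Het and 951, 793 and 913 CPM in WT. The 3 groups did not overlap, with Het between KO and WT. The log2 fold change was -1.06 in KO against WT (adjusted p = 1.13e-09, SE 0.07), -0.72 in Het against WT (adjusted p = 1.99e-07, SE 0.07) and -0.34 in KO against Het (adjusted p = 0.00161, SE 0.07). mt-Nd1 (chrM:2751-3707, plus strand) shares no 31-base word with any other transcript. It stood at 1011, 1039 and 1068 CPM in KO, 1177, 1081 and 1133 CPM in Het and 1980, 1848 and 1881 CPM in WT. All KO and Het libraries lay far below WT, with log2 fold changes of -0.87 in KO against WT (adjusted p = 3.35e-10, SE 0.05) and -0.75 in Het against WT (adjusted p = 3.82e-09, SE 0.05).

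mt-Nd4 averaged 493 ± 19.5 CPM in KO, 577 ± 46.1 in Het and 805 ± 71.5 in WT, and mt-Nd5, its neighbour in the membrane arm, 540 ± 22.1 CPM in KO, 603 ± 64.1 in Het and 915 ± 110 in WT. Both were called lower in KO (log2 fold change -0.71 and -0.76) and in Het (-0.48 and -0.60) than in WT. mt-Nd4 was also lower in KO than in Het (-0.23, adjusted p = 0.0309), a call that was lost without KO replicate 1, KO replicate 3, Het replicate 1 or Het replicate 3 (adjusted p = 0.0721 to 0.117). mt-Nd6 (chrM:13552-14070) is the mRNA on the minus strand, the strand opposite to the other 12. It averaged 78.5 ± 5.48 CPM in KO, 91.2 ± 9.10 in Het and 130 ± 17.1 in WT (log2 fold change -0.72 in KO versus WT, adjusted p = 0.000141, and -0.51 in Het versus WT, adjusted p = 0.00200). Its log2 fold changes, though not its CPM, lie near those of mt-Nd4 and mt-Nd5. As strand handling was not given, whether its reads came from the minus strand is not known.

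mt-Cytb, the catalytic cytochrome of complex III, was counted at 1572, 1738 and 1535 CPM in KO, 2035, 1583 and 1843 CPM in Het and 2552, 2296 and 2304 CPM in WT. KO and Het lay below every WT library but overlapped each other (log2 fold change -0.56 in KO against WT, adjusted p = 0.000218, SE 0.09; -0.39 in Het against WT, adjusted p = 0.00334, SE 0.09). mt-Co1, the oxygen-reducing subunit of complex IV, stood at 2359, 2622 and 2331 CPM in KO, 2919, 2177 and 2512 CPM in Het and 3829, 3232 and 3347 CPM in WT. Its log2 fold change was -0.51 in KO against WT (adjusted p = 0.00521, SE 0.11) and -0.45 in Het against WT (adjusted p = 0.0114, SE 0.11), and the call in Het was lost without Het replicate 3 (adjusted p = 0.0605). mt-Nd1, mt-Cytb and mt-Co1 had mean deposited FPKM, a level per length, of 1413, 1692 and 1817 over the 9 libraries. Each was above the highest nuclear respiratory chain gene, Atp5b, at 1267. The levels of mt-Co2, mt-Co3, mt-Atp6 and mt-Nd4l, which match copies elsewhere in full, cannot be ranked from these counts.

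The composition of the counted mitochondrial mRNA reads also differed between groups, although no test was run on it. It leaves out most of mt-Co2, mt-Co3, mt-Atp6 and mt-Nd4l, which match copies in full and had few counts. mt-Co1 itself shares 63.9% of its words with other transcripts. The values are thus shares of assigned reads and may differ from shares of the mRNA itself. mt-Co1 made up 36.5 ± 0.737% of mitochondrial mRNA counts in KO, 34.4 ± 1.44% in Het and 32.8 ± 0.604% in WT. mt-Nd1 made up 15.6 ± 0.812% in KO, 15.4 ± 0.974% in Het and 18.1 ± 0.675% in WT, and mt-Nd2 6.36 ± 0.329% in KO, 7.35 ± 0.571% in Het and 8.39 ± 0.412% in WT. KO libraries did not overlap WT libraries in any of the 3.

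**Figure D2:**
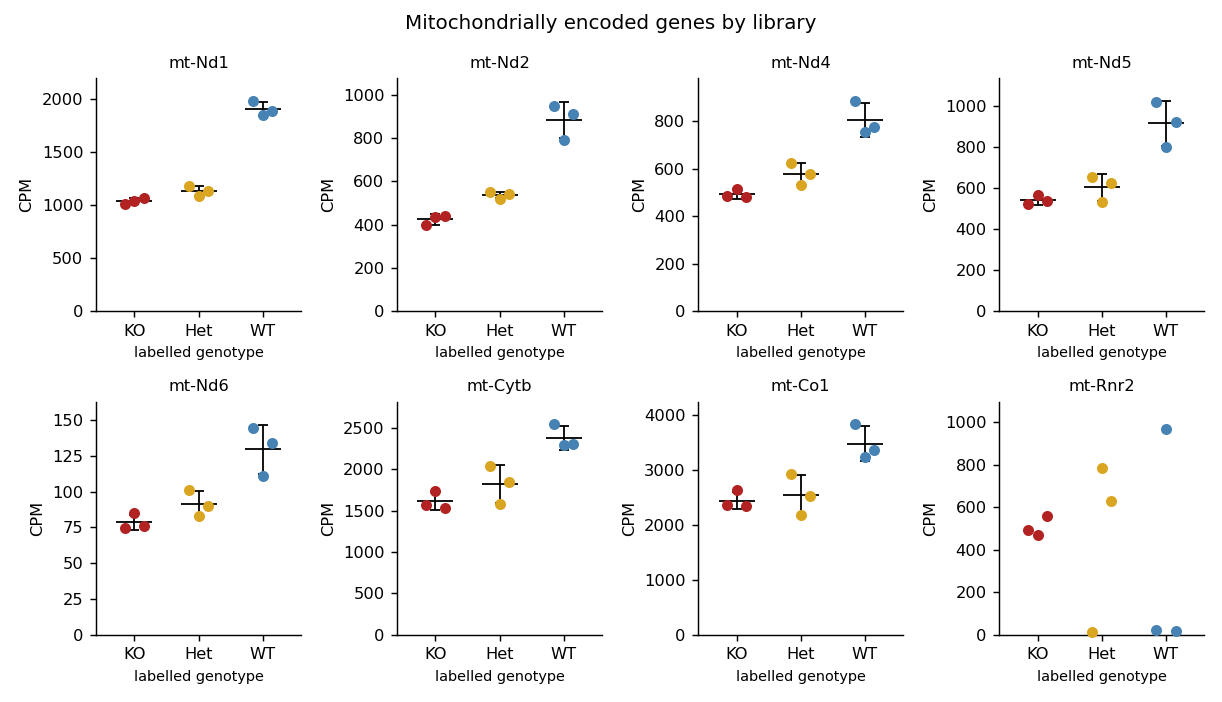
CPM of 7 mitochondrial mRNAs and of mt-Rnr2 in each KO, Het and WT library; points are libraries and bars are mean and SD (n = 3), not drawn for mt-Rnr2. The 7 mRNAs are lower in every KO library than in every WT library, whereas mt-Rnr2 is near 0 in 1 Het and 2 WT libraries. The share of all genes without overlap between KO and WT was not counted, so the 7 cannot be called unusual in this.

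mt-Co2, mt-Co3, mt-Atp6 and mt-Nd4l match their chromosome 1 copies with 0 differing bases and had few counts. mt-Co2 had 14, 5 and 14 counts in KO, 19, 11 and 17 in Het and 22, 30 and 17 in WT, and mt-Co3, the third core subunit of complex IV, had 24, 29 and 46 in KO, 48, 35 and 30 in Het and 27, 27 and 38 in WT. Their copies were also low, with 0 to 7 counts per library for Gm28661 and 0 to 11 for Gm28437, so the sums of the pairs stay far under mt-Co1. Their mean FPKM values of 0.961 and 1.66 stand against 1817 for mt-Co1. mt-Co2 was called lower in KO than in WT (log2 fold change -1.39, SE 0.40, adjusted p = 0.00705) and mt-Co3 was not called (-0.22, adjusted p = 0.553), and both values rest on the few reads assigned to either copy. mt-Nd4l had 0 or 1 counts and was not tested. The ATP synthase subunits mt-Atp6 and mt-Atp8 were also low in counts. mt-Atp6 had 144, 130 and 181 counts in KO, 121, 162 and 173 in Het and 166, 197 and 197 in WT, and mt-Atp8 had 52, 39 and 38 in KO, 41, 29 and 47 in Het and 61, 74 and 61 in WT, with log2 fold changes of -0.63 (adjusted p = 0.000836) and -0.93 (adjusted p = 0.00265) in KO against WT. mt-Atp6 shares 99.5% of its words with other transcripts and mt-Atp8 shares 7.47%.

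mt-Nd3, a complex I core subunit, had 1075, 1117 and 1520 counts in KO, 1220, 1760 and 1193 in Het and 1074, 1142 and 1230 in WT, and it was not called in KO versus WT (log2 fold change -0.22, SE 0.14, adjusted p = 0.197). The copy Gm28438 had 2, 0 and 4 counts in KO, 0, 4 and 1 in Het and 128, 157 and 136 in WT. The copy thus held 9.96 to 12.1% of the reads of the pair in WT and at most 0.262% in KO and Het. Summed over the pair, the level was 43.6 ± 6.59 CPM in KO, 50.3 ± 9.20 CPM in Het and 57.0 ± 2.38 CPM in WT, and KO no longer overlapped WT. No test was run on the sum.

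**Figure D3:**
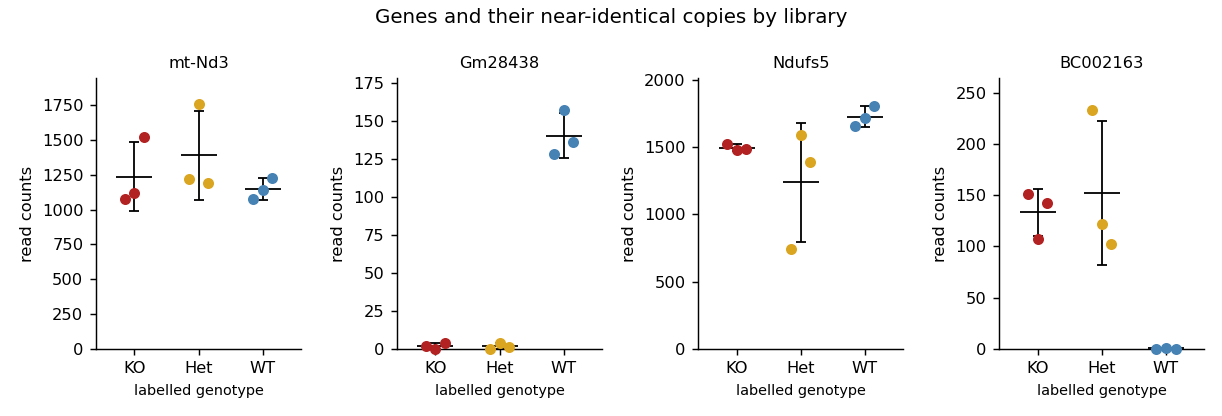
Read counts of mt-Nd3 and its copy Gm28438 and of Ndufs5 and its copy BC002163 in each KO, Het and WT library; points are libraries and bars are mean and SD (n = 3). Gm28438 is counted at 0 to 4 in KO and Het and at 128 to 157 in WT, and BC002163 at 102 to 233 in KO and Het and at 0 or 1 in WT.

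The mitochondrial rRNAs, the RNA core of the organelle's ribosome, followed the split across labels. mt-Rnr2 had 492, 467 and 558 CPM in KO, 12.7, 784 and 627 CPM in Het and 21.3, 965 and 19.1 CPM in WT. mt-Rnr1 had 228, 209 and 255 CPM in KO, 5.98, 276 and 207 CPM in Het and 12.4, 469 and 9.86 CPM in WT. The libraries low in one were low in the other. Neither rRNA was called in KO versus WT (log2 fold change 0.59 with SE 1.81 for mt-Rnr2 and 0.49 with SE 1.69 for mt-Rnr1). With the split as a covariate, chosen after seeing the data, the log2 fold changes for KO versus WT turned to -0.98 for mt-Rnr2 and -1.01 for mt-Rnr1. The split was drawn on the counts of these 2 genes, so a p-value from that fit has no meaning for them. Only WT replicate 2 is rich in these rRNAs, so these estimates rest on that library for WT.

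Of the 22 mitochondrial tRNA genes 21 had 0 counts in every library. The other was mt-Tp, the proline tRNA gene on the minus strand, at 12.5 ± 1.17 CPM in KO, 13.9 ± 2.43 in Het and 24.5 ± 1.85 in WT (log2 fold change -0.97, adjusted p = 3.50e-06 for KO versus WT; -0.82, adjusted p = 3.34e-05 for Het versus WT).

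Several lists of cell type markers also differed between the groups. Their counts in KO versus WT stand against 26.5% of all genes higher and 26.3% lower. All 10 markers of mature neurons and synapses were lower in KO than in WT, summing to 1075 to 1111 CPM in KO, 1245 to 1393 in Het and 1790 to 1992 in WT. All 8 cell cycle markers were higher, at 372 to 392 CPM in KO, 291 to 308 in Het and 192 to 207 in WT. Of 8 striatal neuron markers 7 were lower in KO, at 63.2 to 66.5 CPM in KO, 60.5 to 74.2 in Het and 312 to 339 in WT, and of 8 astrocyte markers 7 were lower, at 514 to 591 CPM in KO, 566 to 601 in Het and 972 to 1012 in WT. All 8 oligodendrocyte lineage markers were lower, at 229 to 261 CPM in KO, 230 to 236 in Het and 416 to 451 in WT, as were 6 of 8 microglia markers, at 55.1 to 57.4 CPM in KO, 49.2 to 53.4 in Het and 94.2 to 105 in WT. Of 7 endothelial markers 4 were higher, at 264 to 276 CPM in KO, 231 to 263 in Het and 190 to 193 in WT, and of 9 progenitor markers 5 were higher and 1 lower, at 1190 to 1264 CPM in KO, 1026 to 1145 in Het and 1027 to 1102 in WT. Each of these markers was above 0 in every library. Projection neuron markers were split in KO versus WT, with 2 of 8 higher and 2 lower (median log2 fold change 0.01). Of 5 choroid plexus markers 2 were higher, at 9.23 to 28.4 CPM in KO, 1.93 to 18.9 in Het and 2.76 to 4.25 in WT. Of 5 erythroid markers tested 1 was higher and 0 were lower. In bulk tissue, fewer cells of a type and less RNA per cell cannot be told apart. The part of the marker differences in the mitochondrial result was not tested. The processed pseudogene share and the PC1 split separated all WT libraries from all others. Whatever lies behind them thus cannot be told apart from genotype in comparisons with WT, for the mitochondrial result or any other.

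Nuclear subunits showed mostly small differences. In KO versus WT 6 of 90 tested were called higher and 21 lower, against 26.5% and 26.3% of all genes, and 63 were not called (median log2 fold change -0.08). In Het versus WT 4 were higher and 27 lower (median -0.11, against 0.01 for all genes), where 22.5% and 23.4% of all genes were called. Without WT replicate 3 the lower count was 10 in KO versus WT, without KO replicate 2 or KO replicate 3 it was 13, and over all fits without 1 library it ran from 10 to 29. In Het versus WT it was 9 without Het replicate 3 or WT replicate 3 and ran from 9 to 33. The split of directions depends on the processing. With trends of GC content and gene length taken out it became 20 higher and 16 lower for KO versus WT and 15 higher and 20 lower for Het versus WT, and with upper-quartile factors 9 higher and 15 lower for Het versus WT; limma on log2(FPKM + 1) gave 10 higher and 16 lower there. In KO versus Het 1 nuclear gene was higher and 2 were lower, against 8.30% and 8.44% of all genes. Each of these 3 calls was lost in at least 1 of the fits without a library.

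**Figure D4:**
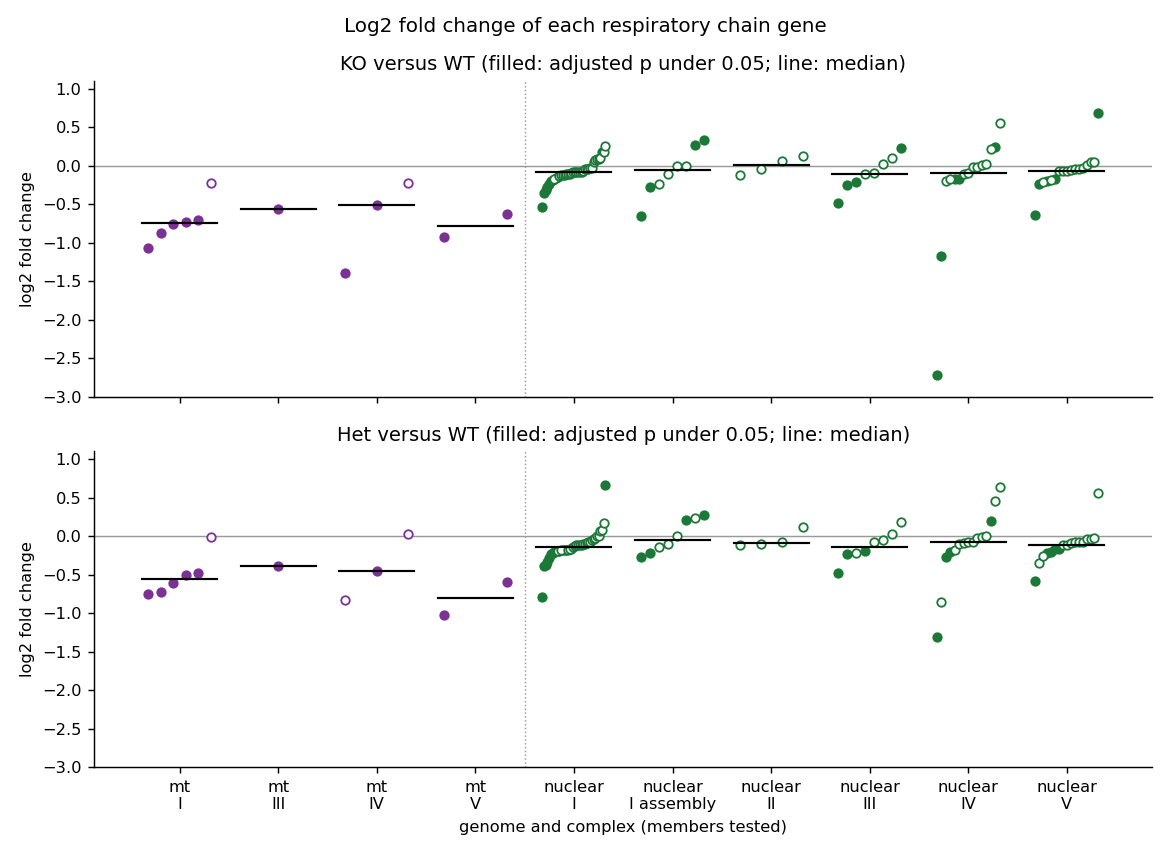
Log2 fold change of each tested protein-coding gene by genome and complex, for KO versus WT (top) and Het versus WT (bottom); filled points have adjusted p under 0.05 and lines are medians. The mitochondrial medians lie between -0.39 and -0.81, whereas every nuclear median lies between -0.14 and 0.01.

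Of the 38 nuclear subunits of complex I, 1 was higher and 8 were lower in KO than in WT, where 26.5% and 26.3% of all genes were, and 1 was higher and 14 were lower in Het, against 22.5% and 23.4% of all genes. The complexes that follow are read against the same shares. Ndufa11, an accessory subunit of the membrane arm, was at 63.1, 58.2 and 51.8 CPM in KO, 57.9, 62.2 and 55.8 in Het and 63.8, 79.6 and 77.8 in WT. Its lowest WT library, replicate 1, was close to the highest KO library. On the log2 scale it differed from WT by -0.35 in KO (adjusted p = 0.00325, SE 0.09) and by -0.33 in Het (adjusted p = 0.00643, SE 0.09). Ndufa5, an accessory subunit of the matrix arm, averaged 56.9 ± 2.55 CPM in KO, 51.4 ± 2.93 in Het and 67.2 ± 2.14 in WT (-0.24 in KO, adjusted p = 0.00416; -0.39 in Het, adjusted p = 0.000110). Ndufs4, an accessory subunit of the matrix arm, was the 1 called higher in KO, at 71.2, 69.0 and 62.1 CPM against 54.5, 62.1 and 62.1 CPM in WT. Its groups touch, and the call (0.18, SE 0.07, adjusted p = 0.0397) was lost without KO replicate 1, KO replicate 2 or WT replicate 1 (adjusted p = 0.111 to 0.198).

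Ndufs5, an accessory subunit of complex I, had the largest fall among those 8 and also the copy BC002163. Ndufs5 stood at 53.2, 56.3 and 49.4 CPM in KO, 30.4, 53.8 and 48.1 in Het and 74.8, 76.6 and 77.9 in WT, and differed from WT on the log2 scale by -0.53 in KO (adjusted p = 0.0467, SE 0.19) and by -0.79 in Het (adjusted p = 0.0114, SE 0.19). The call in KO was lost in 7 of the 9 fits without 1 library (adjusted p = 0.0673 to 0.127), namely without each KO or WT replicate or Het replicate 3. BC002163 had 151, 107 and 142 counts in KO, 233, 122 and 102 in Het and 0, 1 and 0 in WT. Het replicate 1, the lowest in Ndufs5 with 742 counts, was the highest in the copy. The sum of the pair was 57.7 ± 3.19 CPM in KO, 49.9 ± 9.12 in Het and 76.5 ± 1.59 in WT, still with no overlap between KO or Het and WT.

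Assembly factors build complex I without staying in it, and 8 of them were tested. Ndufaf4, which with Ndufaf3 helps form the arm that binds ubiquinone, was at 16.5, 15.2 and 20.7 CPM in KO, 23.5, 24.5 and 20.7 CPM in Het and 28.7, 25.8 and 28.2 CPM in WT. WT lay above all others, and KO replicate 3 reached the lowest Het library. The log2 fold change was -0.66 in KO against WT (adjusted p = 6.21e-05, SE 0.10), -0.27 in Het against WT (adjusted p = 0.0440, SE 0.10) and -0.39 in KO against Het (adjusted p = 0.0169, SE 0.10). The call for KO versus WT held in every fit without 1 library, that for Het versus WT was lost in 6 of 9 (adjusted p = 0.0503 to 0.185; held without KO replicate 2, KO replicate 3 and WT replicate 2) and that for KO versus Het without KO replicate 1, KO replicate 2 or Het replicate 2 (0.0701 to 0.0991). Ndufaf3 was also lower in KO than in WT (-0.27, adjusted p = 0.00776). Ndufaf2, a chaperone of the late steps, and Ndufaf7, a methyltransferase acting on a complex I subunit, were higher (0.33, adjusted p = 0.00175, and 0.27, adjusted p = 0.00833), so the factors did not share 1 direction. Ndufaf2 shares 65.1% of its words with other transcripts, so its reads may be split.

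Complex II, succinate dehydrogenase, which also serves the citric acid cycle, had 0 of 4 subunits called in KO or Het versus WT by edgeR, 0 at an unadjusted p under 0.05 and 0 by DESeq2. By limma on log2(FPKM + 1), Sdhc was called higher in KO (0.16, adjusted p = 0.0312) and in Het (0.16, adjusted p = 0.0353). Sdha, the flavoprotein, averaged 220 ± 8.58 CPM in KO, 201 ± 11.8 in Het and 212 ± 10.9 in WT, and Sdhb, the iron-sulfur subunit, 114 ± 4.36 CPM in KO, 115 ± 9.12 in Het and 124 ± 7.31 in WT. The membrane anchors Sdhc and Sdhd had log2 fold changes of 0.12 (adjusted p = 0.104) and -0.05 (adjusted p = 0.656) in KO versus WT.

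Complex III passes electrons from ubiquinol to cytochrome c, and 3 of its 8 nuclear genes were lower and 1 higher in KO than in WT. Uqcrq, a small accessory subunit that shares no word with other transcripts, was at 116, 110 and 100 CPM in KO, 111, 113 and 101 CPM in Het and 142, 156 and 157 CPM in WT. KO and Het were alike in range and far from WT (log2 fold change -0.48 in both, SE 0.06, adjusted p = 5.79e-06 for KO and 9.24e-06 for Het). Uqcrb, another accessory subunit, was at 30.7, 32.6 and 32.9 CPM in KO, 34.4, 32.9 and 29.5 in Het and 35.7, 37.2 and 41.3 in WT (-0.25 in KO, adjusted p = 0.0137, lost without KO replicate 1 or WT replicate 3 at 0.0653 and 0.0889). Uqcrh, the hinge protein at the cytochrome c site, was higher in KO at 102, 109 and 90.0 CPM against 80.5, 82.7 and 93.7 CPM in WT, with overlap (0.23, adjusted p = 0.0333, lost without KO replicate 1, KO replicate 2, WT replicate 1 or WT replicate 2 at 0.0915 to 0.128).

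Complex IV has paralogous subunits that differ by tissue, and both of the strongest nuclear falls were among its rare isoforms. Cox6a2, the isoform of heart and skeletal muscle that is also described in some interneurons of mice, had 4, 2 and 3 counts in KO, 8, 13 and 12 in Het and 17, 16 and 16 in WT. The 3 groups did not overlap. The log2 fold change was -2.72 in KO against WT (adjusted p = 7.11e-05, SE 0.44) and -1.86 in KO against Het (adjusted p = 0.0130, SE 0.48); the call against Het was lost without KO replicate 2 (adjusted p = 0.0635), and Het versus WT was not called (-0.86, SE 0.35, adjusted p = 0.0554). Its ubiquitous paralogue Cox6a1 averaged 434 ± 31.4 CPM in KO, 406 ± 23.1 in Het and 489 ± 23.4 in WT. Cox6a1 was called lower in KO (-0.17, adjusted p = 0.0302) and Het (-0.27, adjusted p = 0.00238), but the values turned to 0.31 and 0.19 after removal of GC content and length trends. The KO call was also lost without KO replicate 2, KO replicate 3, WT replicate 2 or WT replicate 3 (adjusted p = 0.0922 to 0.131).

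Cox6b2, the isoform known from testis, had 20, 18 and 21 counts in KO, 14, 17 and 21 in Het and 38, 32 and 36 in WT. KO and Het overlapped and lay below WT (log2 fold change -1.17, SE 0.26, adjusted p = 0.00102 for KO; -1.31, SE 0.26, adjusted p = 0.000610 for Het). Its ubiquitous paralogue Cox6b1 averaged 180 ± 14.7 CPM in KO, 180 ± 15.3 in Het and 182 ± 12.1 in WT and was not called (-0.02 in both comparisons with WT), although with GC content and length trends removed it was higher by 0.32 in KO and 0.27 in Het. Of 8 interneuron markers 5 were lower and 1 was higher in KO than in WT, against 26.3% and 26.5% of all genes. The interneuron list summed to 557 to 613 CPM in KO, 585 to 671 in Het and 728 to 787 in WT. The muscle list summed to 3.31 to 4.11 CPM in KO, 4.10 to 4.67 in Het and 7.86 to 8.82 in WT. Of its 9 genes 3 could be tested and were lower in KO, and Ckm, the muscle creatine kinase, was at 0 counts in all libraries. The part of either cell type in the Cox6a2 and Cox6b2 values was not tested.

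The other isoform pairs of complex IV differed less. Cox4i2, the isoform induced by low oxygen, averaged 1.43 ± 0.219 CPM in KO, 1.51 ± 0.288 in Het and 0.970 ± 0.168 in WT (log2 fold change 0.55, adjusted p = 0.0790 for KO; 0.64, adjusted p = 0.0501 for Het), while the common Cox4i1 was at 231 to 264 CPM in KO, 227 to 262 in Het and 245 to 288 in WT. Cox7a1, the muscle isoform, had 4 to 17 counts per library and was not called, nor was its common paralogue Cox7a2. Cox7a2l, which helps join complexes III and IV, was higher at 146, 143 and 138 CPM in KO and 147, 143 and 126 CPM in Het, against 108, 122 and 130 CPM in WT (0.24, SE 0.07, adjusted p = 0.00687 for KO; 0.20, SE 0.07, adjusted p = 0.0238 for Het). KO did not overlap WT, and the Het call was lost without Het replicate 1, Het replicate 2 or WT replicate 1 (adjusted p = 0.0555 to 0.119). Cox7a2l shares 16.6% of its words with a processed copy, Gm6969. The copy had 342, 379 and 465 counts in WT (17.4 ± 2.34 CPM), 0 in every KO library and 0, 0 and 5 in Het. The pair was not summed or tested, so the calls and the lack of overlap hold for reads assigned to Cox7a2l alone. Cox8b and Cox8c had 0 counts in every library, and Cox8a was not called (-0.18 in KO, adjusted p = 0.132).

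Ndufa4, once placed in complex I and now known as a complex IV subunit, averaged 138 ± 5.34 CPM in KO, 135 ± 6.33 in Het and 147 ± 10.5 in WT and was not called. Its paralogue Ndufa4l2, induced by low oxygen and high in pericytes, was at 3.03, 3.28 and 2.19 CPM in KO, 3.65, 3.52 and 4.08 in Het and 2.35, 2.18 and 2.54 in WT. Het lay above both other groups, and the call was for Het versus WT (0.67, SE 0.18, adjusted p = 0.00676), with KO versus Het not called (-0.41, adjusted p = 0.128). Pericyte and mural markers summed to 201 to 214 CPM in KO, 197 to 211 in Het and 139 to 146 in WT. In KO 3 of 7 were higher and 1 lower, against 26.5% and 26.3% of all genes. In Het 3 of 7 were higher, against 22.5% of all genes. The part of these markers in the Ndufa4l2 value was not tested.

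**Figure D5:**
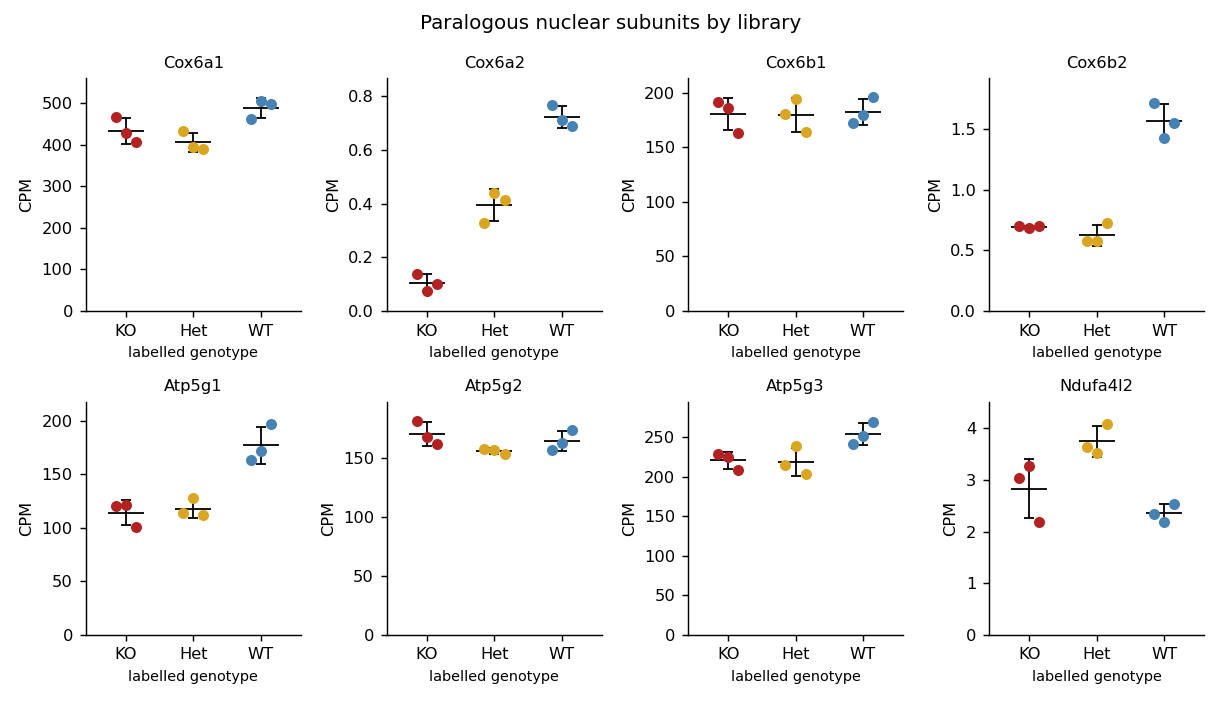
CPM of paralogous nuclear subunits in each KO, Het and WT library; points are libraries and bars are mean and SD (n = 3). Cox6a2 averages 0.105 CPM in KO, 0.394 in Het and 0.723 in WT, and Atp5g1 is lower in KO and Het while Atp5g2 is not.

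In complex V, 1 of 17 nuclear genes was higher and 4 were lower in KO than in WT. Atp5g1, Atp5g2 and Atp5g3 encode the same mature subunit c, the proton-carrying ring, from 3 genes. Atp5g1 was at 120, 121 and 100 CPM in KO, 114, 128 and 112 CPM in Het and 163, 172 and 197 CPM in WT. All KO and Het libraries lay below WT (log2 fold change -0.64, SE 0.09, adjusted p = 5.03e-05 for KO; -0.59, SE 0.09, adjusted p = 0.000142 for Het). Atp5g3, the most abundant of the 3, averaged 221 ± 10.6 CPM in KO, 219 ± 17.8 in Het and 254 ± 14.2 in WT (-0.20, adjusted p = 0.0139 for KO, lost without KO replicate 3 or WT replicate 3 at 0.0643 and 0.0754). Atp5g2 was at 181, 167 and 161 CPM in KO, 157, 157 and 153 in Het and 157, 162 and 174 in WT and was not called (0.05, adjusted p = 0.482), and it shares 40.2% of its words with other transcripts.

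Atp5e, the epsilon subunit of the central stalk, was the 1 complex V gene called higher, at 220, 212 and 189 CPM in KO, 188, 201 and 176 CPM in Het and 103, 170 and 112 CPM in WT. WT replicate 2 stood well above the other WT libraries, near the lowest KO and Het libraries. The log2 fold change for KO versus WT was 0.69 (SE 0.19, adjusted p = 0.0213), lost without KO replicate 1, KO replicate 2 or WT replicate 3 (adjusted p = 0.0608 to 0.0675), and Het versus WT was not called (0.55, adjusted p = 0.0538). Atp5d, the delta subunit beside it in the stalk, was at 162, 161 and 142 CPM in KO, 154, 170 and 152 in Het and 173, 179 and 195 in WT (-0.23, adjusted p = 0.00614 for KO). Atp5j, a peripheral stalk subunit, was the nuclear gene called higher in KO than in Het, at 119, 114 and 108 CPM against 108, 97.4 and 96.6 CPM (0.17, adjusted p = 0.0420). That call was lost without KO replicate 1, KO replicate 2, Het replicate 2, Het replicate 3 or WT replicate 2 (adjusted p = 0.0509 to 0.189). Atp5b, the catalytic beta subunit, averaged 1105 ± 36.1 CPM in KO, 1070 ± 64.5 in Het and 1155 ± 52.9 in WT and was not called.

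Many nuclear respiratory chain genes are known targets of nuclear respiratory factor 1 (NRF-1), a transcription factor, and of GABP, an ETS family factor. RefSeq promoter sequences (250 bases before to 50 after the start, GRCm38.p6) were at hand for 74 of the 93 nuclear genes. The letters GCGCANGCGC, searched on both strands, were in 19 of the 74 (25.7%) and in 5.19% of the promoters of 27025 genes, and CCGGAAG, the ETS letters, in 18 of the 74 (24.3%) and in 9.93% of all. The first motif is shown in capitals in 3 windows upstream of the start, chosen after their values were seen: Ndufaf4 and Ndufa11, lower in KO, and Sdhd, not called.
Ndufaf4 (chr4:24897955-24898014, plus strand): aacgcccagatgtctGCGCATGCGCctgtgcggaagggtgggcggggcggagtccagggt
Ndufa11 (chr17:56717687-56717746, plus strand): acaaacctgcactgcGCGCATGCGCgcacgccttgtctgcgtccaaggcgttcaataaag
Sdhd (chr9:50603884-50603943, minus strand): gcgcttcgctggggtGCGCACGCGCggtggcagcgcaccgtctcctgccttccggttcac
A match describes letters in a window and not a bound site. The transcript of the factor, Nrf1, averaged 38.9 CPM in KO, 43.0 in Het and 35.7 in WT and was not called in KO versus WT (log2 fold change 0.12, adjusted p = 0.137) but was higher in Het than in WT (0.27, adjusted p = 0.00402). The GABP subunit genes Gabpa, Gabpb1 and Gabpb2 were higher in KO by 0.31, 0.38 and 0.81 on the log2 scale. The coactivator gene Ppargc1a averaged 11.8 ± 1.31 CPM in KO, 11.3 ± 1.40 in Het and 19.0 ± 1.54 in WT (-0.69, adjusted p = 6.70e-05 for KO; -0.75, adjusted p = 4.49e-05 for Het), and Esrrg, a nuclear receptor of the same network, 6.94 ± 0.484 CPM in KO, 8.68 ± 1.78 in Het and 18.1 ± 1.33 in WT (-1.38 in KO, adjusted p = 2.45e-07). Of the 16 regulators listed, 3 were higher and 3 lower in KO, and 5 were higher and 5 lower in Het, against 26.5% and 26.3% of all genes in KO and 22.5% and 23.4% in Het.

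Of 20 genes tested that copy and transcribe mitochondrial DNA, 10 were higher in KO than in WT and the other 10 were not called (median log2 fold change 0.30), and 10 were higher and 1 lower in Het. Over all genes 26.5% were higher and 26.3% lower in KO, and 22.5% higher and 23.4% lower in Het. Tfam, which packages and transcribes the mitochondrial genome, was at 47.2, 48.2 and 47.4 CPM in KO, 51.2, 44.4 and 44.6 in Het and 37.9, 38.1 and 42.0 in WT. KO and Het lay above WT (0.27, adjusted p = 0.00447 for KO; 0.25, adjusted p = 0.0111 for Het). Polg2, an accessory subunit of the mitochondrial DNA polymerase, was higher by 0.69 in KO (adjusted p = 0.00200), whereas Polrmt, the mitochondrial RNA polymerase, was not called in KO (-0.13, adjusted p = 0.212) and was lower in Het (-0.26, adjusted p = 0.0244).

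The counts of the other lists in KO versus WT stand against 26.5% of all genes higher and 26.3% lower. Of 19 tested genes of the citric acid cycle and pyruvate dehydrogenase 2 were higher and 10 lower in KO than in WT, led by Ogdh, a subunit of the oxoglutarate dehydrogenase complex, at 159 ± 7.23 CPM in the KO libraries and 239 ± 9.09 CPM in the WT libraries (-0.59, adjusted p = 1.64e-07). Of 21 genes of mitochondrial mass and import 3 were higher and 10 lower, among them the outer membrane channel Vdac1 at 347 ± 10.2 CPM in the KO libraries and 441 ± 9.35 CPM in the WT libraries (-0.35, adjusted p = 5.35e-05), while Tomm22, a receptor of the import pore, was higher (0.34, adjusted p = 0.000104). Of 18 electron carrier and coenzyme Q genes 2 were higher and 6 lower, including Cycs, cytochrome c, at 100.2 ± 3.25 CPM in the KO libraries and 131 ± 1.13 CPM in the WT libraries (-0.38, adjusted p = 5.72e-05). Of 76 mitochondrial ribosome genes 15 were higher and 7 lower, with the ribosomal protein genes Mrps10 higher (log2 fold change 1.03) and Mrpl10 lower (-0.66). Of 20 mitochondrial RNA processing genes 4 were higher and 4 lower, and of 37 other assembly factors 9 were higher and 8 lower, shares under those of all genes. Glycolysis, the route that makes ATP outside the chain, had 5 of 17 higher and 7 lower, with Eno1 at 424 ± 7.33 CPM in the KO libraries and 283 ± 15.1 CPM in the WT libraries (0.58) and Eno2, the neuronal enolase, at 71.6 ± 5.38 CPM in the KO libraries and 155 ± 6.98 CPM in the WT libraries (-1.11).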

How the data were processed

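Dorsal telencephalon RNA was prepared with RNeasy Plus and NEBNext Ultra kits, per the labels' protocols. The authors deposited read counts per gene and FPKM values. The deposited FPKM could be recomputed from the counts with 1 length per gene and the library sum. Bowtie2 2.0.6, TopHat2 2.0.9, HTSeq 0.6.1, DESeq 1.10.1 and build mm10 are named without roles, per the submitters' processing notes; strand handling was not given in the sources used here. Symbols came from GENCODE M21 (40254 of 41128 genes; unmatched genes held 0.107% of counts). Genes passing filterByExpr (minimum count 10, total 15) were fitted with edgeR 4.0.16 in R 4.3.3 (TMM factors, robust quasi-likelihood, all 9 libraries, 6 residual degrees of freedom, Benjamini-Hochberg over 15271 genes, threshold 0.05). SE was derived from the fold change and its F statistic. CPM use TMM-scaled totals. Shares were tested by exact permutation of libraries. Python 3.11.15, scipy 1.17.1 and matplotlib 3.10.9 were used. Counts were simulated over 15271 genes, of which 67 were changed 1.5-fold, 67 changed 2-fold and 66 changed 4-fold. For KO versus WT 77.6, 91.0 and 98.5% of these were recovered, with 13 false calls. For Het versus WT it was 74.6, 85.1 and 100%, with 8 false calls, and for KO versus Het 59.7, 80.6 and 97.0%, with 8. The measured KO versus WT counts had 52.8% of genes called, a setting the simulation did not cover. Its recovery and false calls thus cannot be carried over to the measured counts.

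The genes, lists and tests were chosen with earlier results of these data known. The naming rule took the 3 largest and 3 smallest folds among mitochondrial mRNAs, both rRNAs, up to 2 called genes each way per complex, paralogue groups and up to 2 called genes each way per list, not all of which are printed, and values are per library, means or ranges. mt-Nd1, mt-Cytb and mt-Nd4 to mt-Nd6 were added; the other named genes, such as Tfam, Polrmt, Nrf1, Gabpa and Ppargc1a, were chosen after their values were seen. Alternatives were RLE and upper-quartile factors, scaling without mitochondrial genes, other filters, DESeq2 1.42.0, a replicate block, limma 3.58.1 on log2(FPKM + 1), GC content and length trends taken out (mgcv 1.9.3), fits of a pair of genotypes alone and leaving out each library. Added after seeing the data were the rRNA split as a covariate, only the 6 rRNA-rich libraries, and only genes with under 5% of 31-base words shared.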

Additional observations from a re-analysis of the deposited data

How the results depend on the processing

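The 11 mitochondrially encoded genes lower in KO than in WT were 11 or 12 under the planned fits that tested at least 15. They were 10 with a filter of 1 CPM in 3 libraries, which tested 14. With the rRNA split as a covariate, chosen after seeing the data, they were 13. The 10 lower in Het were 9 or 10, and 12 with that covariate. The counts of 13 and 12 take in mt-Rnr1 and mt-Rnr2, on which the split was drawn, so calls of those genes have no meaning there. Keeping only genes that share under 5% of their words leaves 4 mitochondrial and 48 nuclear genes tested and, for that reason, lower counts: mitochondrial genes lower numbered 2 for KO versus WT, 2 for Het versus WT and 0 for KO versus Het, and for nuclear genes 3 higher in KO versus WT, 2 higher and 14 lower in Het versus WT, and 0 higher and 1 lower in KO versus Het. Removal of GC content and length trends gave 20 nuclear genes higher in KO versus WT, 15 in Het versus WT and 4 in KO versus Het, and together with the replicate block 18, 15 and 3. The rRNA split as a covariate gave 3 nuclear genes higher and 13 lower in KO versus WT. The 6 rRNA-rich libraries gave 10 lower in KO versus WT, 2 higher and 9 lower in Het versus WT and 1 lower in KO versus Het, with 1 WT library, which is assumed to vary like the others. Upper-quartile factors gave 9 higher and 15 lower in Het versus WT, and limma 10 and 16. In KO versus Het the 1 nuclear gene higher became 0 with scaling without mitochondrial genes, limma, only the genotypes compared or the replicate block and 2 with no filter, and the 2 lower became 1 with a filter of 1 CPM in 3 libraries or only the genotypes compared. The cause of the shifts other than those from fewer genes or libraries was not tested.

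Without each library in turn, mitochondrial genes lower numbered 11 to 12 in KO versus WT, 9 to 10 in Het versus WT and 1 to 4 in KO versus Het; nuclear genes higher 3 to 7, 2 to 7 and 0 to 3; nuclear genes lower 10 to 29, 9 to 33 and 0 to 3. The lowest nuclear counts were 10 in KO versus WT without WT replicate 3 and 9 in Het versus WT without WT replicate 3 or Het replicate 3; KO replicate 2 and KO replicate 3 each gave 13 in KO versus WT. In every such fit, 11 of 11 mitochondrial calls held in KO versus WT, 9 of 10 in Het versus WT and 1 of 2 in KO versus Het, against 13 of 27, 11 of 31 and 0 of 3 nuclear calls. The mitochondrial share differed by -0.401 to -0.314 percentage points in KO versus WT, -0.327 to -0.238 in Het versus WT and -0.118 to -0.0362 in KO versus Het, the log2 ratio by -0.63 to -0.48, -0.48 to -0.30 and -0.28 to -0.10, and the nuclear share by -0.0559 to -0.00471, -0.0709 to -0.0198 and -0.00849 to 0.0341.

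The replicate numbers did not pair the libraries (correlations of same-numbered deviations -0.11 to 0.08; 2 of 9 libraries correlated best with their own number). A replicate block changed 4 of 105 calls in KO versus WT, 7 in Het versus WT and 1 in KO versus Het, with 5 nuclear genes higher and 18 lower in KO versus WT.

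Reversed log2 fold changes came from removal of GC content and length trends, without and with the replicate block: Ndufa1 became 0.087 and 0.083 in KO versus WT, Cox6a1 0.31 and 0.31 in KO and 0.19 and 0.18 in Het, Cox6b1 0.32 and 0.32 in KO and 0.27 and 0.27 in Het, and Cox8a 0.33 and 0.33 in KO and 0.28 and 0.28 in Het. The rRNA split, as a covariate and as rRNA-rich libraries only, gave -1.01 and -1.03 for mt-Rnr1 in KO versus WT, and for mt-Rnr2 -0.98 and -0.94 in KO versus WT, -0.53 and -0.45 in Het versus WT and -0.46 and -0.49 in KO versus Het. Of 3356 values of named genes under alternatives, 22 reversed, 163 lost a call and 62 gained one. Depth limits mt-Co2, mt-Co3, Cox6a2 and Cox6b2, each under 50 counts per library.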
